A study of Mus musculus with 9 samples.

Results

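The 10 genes described here are effectors and targets of the Hippo pathway, chosen by name: the targets Ctgf, Cyr61, Ankrd1, Amotl2 and Lats2, the coactivators Yap1 and Wwtr1, and the DNA-binding partners Tead1, Tead3 and Tead4. They are 10 of the 33924 genes in a table of raw RNA-seq read counts from mouse thyroid, and all 10 were among the 17079 genes that passed the filter on low counts. The table holds 3 libraries from thyroids labelled Smarcb1 KO, 3 from thyroids labelled Arid2 KO and 3 from wild-type thyroids. SMARCB1 is a core subunit of the SWI/SNF chromatin remodelling complexes, and ARID2 is a subunit of the PBAF form of that complex. The series is about loss of SWI/SNF subunits in thyroid tumours. The labels of these 9 libraries name no other allele or agent, and they give no Cre driver, deleted exons, age, sex or batch. Whether each library stems from a different animal is not stated, and the p-values therefore reflect library-to-library spread, which may be technical in part.

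Total counts ran from 38644867 to 41362640 in Smarcb1-labelled libraries, from 61179297 to 89553766 in Arid2-labelled libraries and from 33666251 to 34045321 in wild-type libraries, so depth moved with the Arid2 label. Smarcb1 had 47.5, 53.7 and 59.4 CPM (counts scaled to library size with the trimmed mean of M-values, TMM) in Smarcb1-labelled libraries, against 65.9, 71.7 and 69.2 CPM in wild-type libraries (log2 fold change -0.36, adjusted p = 0.0651). Arid2 had 94.4, 77.7 and 59.9 CPM in Arid2-labelled libraries, against 68.8, 74.9 and 67.8 CPM in wild-type libraries (log2 fold change 0.13, adjusted p = 0.745). Gene-level counts cannot show whether single exons were lost, and the groups are therefore called Smarcb1-labelled and Arid2-labelled. Thyroglobulin (Tg) had the highest count of any gene in each library, and each of the 7 follicular cell markers was detected in every one. Of these markers Slc26a4 had at most 0.422 CPM in any library, and 6 of the 7 passed the filter on low counts. Other tissues were represented unequally: the summed level of the 3 parathyroid markers ranged from 6087 to 16985 CPM in Smarcb1-labelled libraries, from 10.6 to 1579 CPM in Arid2-labelled libraries and from 8.15 to 4318 CPM in wild-type libraries. The summed level of the 5 thymocyte markers was 111 CPM in Smarcb1-labelled replicate 2 and 798 CPM in Arid2-labelled replicate 1, and under 1 CPM in each of the other 7 libraries. Smarcb1-labelled replicate 3 had 809 CPM of Xist and 0 counts of the Y-linked gene Ddx3y, whereas the other 8 libraries had 0.64 to 2.59 CPM of Xist and 43.4 to 110 CPM of Ddx3y. By these sex-linked genes the Smarcb1-labelled group does not stem from a single animal, which is not shown for the other groups. In bulk tissue, fewer cells of a type and less RNA per cell cannot be told apart.

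The Hippo pathway is a kinase cascade that restrains organ growth. When the kinases MST1/2 and LATS1/2 are active, YAP and its paralog TAZ (encoded by Wwtr1) are phosphorylated and held in the cytoplasm or degraded. When the cascade is off, YAP and TAZ enter the nucleus, where they have no DNA-binding domain of their own and act through TEAD proteins on genes such as Ctgf, Cyr61 and Ankrd1. Amotl2 and Lats2 encode inhibitors of YAP and are themselves induced by it, which makes them feedback genes. Because the pathway acts largely through phosphorylation and localisation, the RNA levels of its factors are not a readout of its activity.

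TEAD proteins bind the element GGAATG. The 250 bases before the annotated start sites in RefSeq (build GRCm38.p6) were searched for these letters on both strands for the 7 members with an entry, which were Cyr61, Ankrd1, Amotl2, Lats2, Yap1, Wwtr1 and Tead3. A match was present in 6 of the 7, against 14.4% of 27025 genes with at least 1 such window, and in 8 of their 11 windows, against 12.6% of all 32851 windows. The 2 Wwtr1 windows overlap and hold the same copy of the element, which is counted in both. The promoters of the 3 target genes with a match and of Yap1 are shown because they place the element in the genes whose levels follow. They are written 5′ to 3′ on the strand of the gene and in lower case, with the element in capitals (CATTCC is the element on the opposite strand). The Cyr61 window lies at chr3:145649986-145650235 (minus strand), Ankrd1 at chr19:36119845-36120094 (minus strand), Amotl2 at chr9:102717554-102717803 (plus strand) and Yap1 at chr9:8004597-8004846 (minus strand).
Cyr61: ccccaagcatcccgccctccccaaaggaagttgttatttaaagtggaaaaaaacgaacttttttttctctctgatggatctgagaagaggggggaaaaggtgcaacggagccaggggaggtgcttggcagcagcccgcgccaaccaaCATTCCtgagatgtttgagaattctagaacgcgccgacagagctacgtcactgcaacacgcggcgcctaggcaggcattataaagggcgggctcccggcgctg
Ankrd1: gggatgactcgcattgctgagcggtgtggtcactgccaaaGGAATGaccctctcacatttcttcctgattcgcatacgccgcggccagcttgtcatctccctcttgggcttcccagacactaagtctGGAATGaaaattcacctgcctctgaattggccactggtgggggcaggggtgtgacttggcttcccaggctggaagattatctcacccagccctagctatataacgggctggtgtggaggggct
Amotl2: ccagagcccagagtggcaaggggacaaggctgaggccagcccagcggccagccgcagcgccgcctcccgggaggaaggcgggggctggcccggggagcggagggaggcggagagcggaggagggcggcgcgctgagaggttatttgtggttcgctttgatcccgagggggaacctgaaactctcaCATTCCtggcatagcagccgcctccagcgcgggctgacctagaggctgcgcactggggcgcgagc
Yap1: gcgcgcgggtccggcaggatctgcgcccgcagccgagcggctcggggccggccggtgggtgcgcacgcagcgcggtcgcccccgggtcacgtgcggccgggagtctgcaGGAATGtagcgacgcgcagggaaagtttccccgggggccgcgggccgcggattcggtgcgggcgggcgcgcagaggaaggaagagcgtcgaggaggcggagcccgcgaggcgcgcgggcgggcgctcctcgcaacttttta
The element began 103 bases before the start site in Cyr61, 210 and 123 bases before it in Ankrd1, 65 bases before it in Amotl2 and 141 bases before it in Yap1. Wwtr1 carried it 136 bases before its first listed start site, which is 170 bases before its second, and Tead3 carried it 182 bases before its first and 123 and 114 bases before its second. Neither of the 2 Lats2 windows held these letters. The AP-1 element TGANTCA, present in 6.75% of all windows, and the CArG box bound by SRF, present in 1.47%, had no match in the members' windows. A match is a description of the letters and not evidence that a factor was bound.

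Levels were compared between genes per kilobase of the longest annotated transcript. Ctgf stood highest, with a median over the 9 libraries of 62.7 CPM per kb. Yap1 followed at 18.5 CPM per kb and Wwtr1 at 14.3 CPM per kb. Tead1 (7.68 CPM per kb), Lats2 (7.35), Tead3 (7.09) and Amotl2 (6.45) lay close together, and their ranges over the 9 libraries overlapped. Cyr61 was far lower than its paralog Ctgf, at 3.44 CPM per kb. Ankrd1, at 1.60 CPM per kb, and Tead4, at 1.03 CPM per kb, were the lowest.

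**Figure D1:**
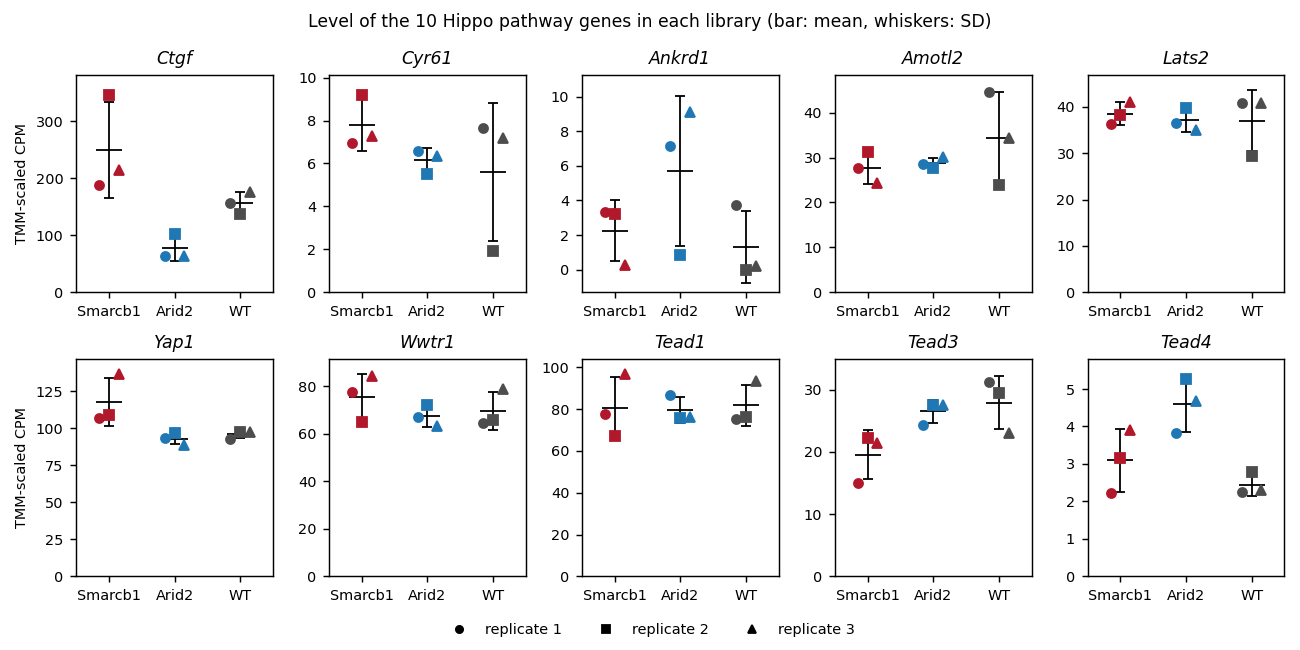
Level of each of the 10 genes in TMM-scaled CPM (vertical axis, 1 panel per gene) in the 3 Smarcb1-labelled, 3 Arid2-labelled and 3 wild-type (WT) libraries. Points are libraries, the bar is the mean and the whiskers are the SD (n = 3), and Ctgf is the gene whose 3 groups do not overlap with one another.

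Of the 10 genes, 1 was called by edgeR in any comparison: Ctgf was higher in Smarcb1-labelled than in Arid2-labelled thyroids. A gene that was not called is not thereby shown to be unchanged. In that comparison 1 of 10 members was called by edgeR's quasi-likelihood test at a Benjamini-Hochberg adjusted p under 0.05, against 16.3% of all tested genes (2779 of 17079, 6.95% higher and 9.32% lower). Against wild type, 0 of 10 members were called in Smarcb1-labelled thyroids, where 7.9% of all genes were (1349), and 0 of 10 in Arid2-labelled thyroids, where 0.556% were (95). At an unadjusted p under 0.05 the members numbered 4 of 10 between the 2 labelled groups, against 35.8% of all genes, 3 in Smarcb1-labelled thyroids against wild type, where 28.4% of all genes were, and 2 in Arid2-labelled thyroids against wild type, where 14.9% were. DESeq2's Wald test called 2, 1 and 2 members in the same 3 comparisons, where it called 25.4%, 16.3% and 5.2% of all genes. The groups did not overlap for 4 of 10 members between Smarcb1-labelled and Arid2-labelled thyroids, against 38.7% of all genes, for 3 of 10 between Smarcb1-labelled and wild-type thyroids, against 33.7%, and for 2 of 10 between Arid2-labelled and wild-type thyroids, against 25.4%. Apart from DESeq2 in Arid2-labelled against wild-type thyroids (2 of 10 members against 5.2% of all genes), these shares of members lay near those of all genes. With 10 genes, none of the shares is read as a result about the set. The members' median log2 fold change was 0.04 for Smarcb1-labelled over Arid2-labelled, 0.20 for Smarcb1-labelled over wild type and -0.04 for Arid2-labelled over wild type, beside medians over all genes of 0.003, 0.05 and 0.02 in the same order. The 3 comparisons share libraries and are not independent of one another.

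**Figure D2:**
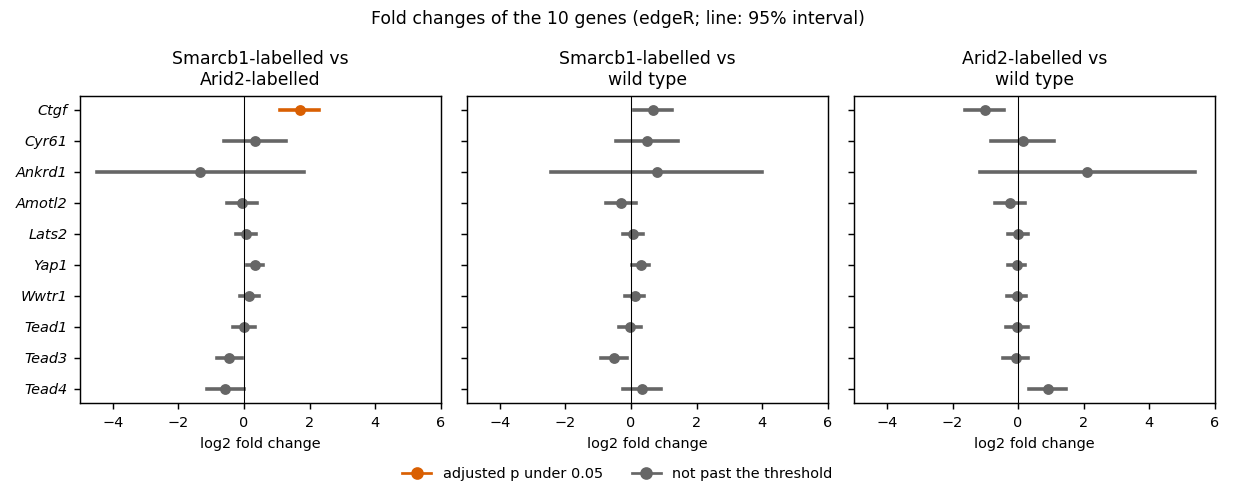
Fold changes of the 10 genes on the log2 scale (horizontal axis) in the 3 comparisons, with 95% intervals from edgeR's quasi-likelihood fit. Ctgf between Smarcb1-labelled and Arid2-labelled thyroids, at 1.70, is the single value past an adjusted p of 0.05, and the intervals of Ankrd1 are the widest.

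Ctgf (also called Ccn2) encodes a secreted matricellular protein of the CCN family and is among the most used reporters of YAP and TAZ. It had 188, 346 and 215 CPM in Smarcb1-labelled libraries, 63.8, 103 and 64.1 CPM in Arid2-labelled libraries, and 156, 138 and 176 CPM in wild-type libraries. All Smarcb1-labelled values lay above all wild-type values, and all wild-type values above all Arid2-labelled values. Means were 249.7 ± 84.1 CPM in Smarcb1-labelled, 76.9 ± 22.4 CPM in Arid2-labelled and 157 ± 19.1 CPM in wild-type thyroids (SD, n = 3 each). Ctgf was 3.25-fold higher in Smarcb1-labelled than in Arid2-labelled thyroids (log2 fold change 1.70, SE 0.26, 95% interval 1.10 to 2.30, edgeR adjusted p = 0.00795). Against wild type the log2 fold change was 0.67 in Smarcb1-labelled thyroids (interval 0.09 to 1.26, adjusted p = 0.129) and -1.03 in Arid2-labelled thyroids (interval -1.61 to -0.44, adjusted p = 0.118), and neither passed the threshold. DESeq2's Wald test called the difference of Arid2-labelled thyroids from wild type (-1.04, adjusted p = 0.00379). Over the 20 alternatives its adjusted p ran from 0.00379 to 0.294, and it was called in 1.

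The difference between the 2 labelled groups was called in 19 of the 20 alternatives, with adjusted p from 1.13e-08 to 0.0601, and in each of the 9 fits that left out 1 library (log2 fold change 1.39 to 1.96). It was not called with the level of parathyroid markers as a covariate, where the log2 fold change was 1.73 and the adjusted p 0.0601. The 2 libraries with near-zero parathyroid markers (10.6 and 8.15 CPM summed) had 64.1 CPM of Ctgf in Arid2-labelled replicate 3 and 176 CPM in wild-type replicate 3. In its own group the first was the middle value and the second the highest. Over the 9 libraries Ctgf had a Pearson r of 0.467 with parathyroid markers (exact permutation p = 0.2003, adjusted p = 0.766). That r was 0.667 without the 2 libraries farthest from the marker median and -0.0665 for deviations from the group means. Summed parathyroid markers were higher in every Smarcb1-labelled library than in any other. A part of parathyroid cells in the Ctgf difference therefore cannot be told apart from the label. Without both thymocyte-marked libraries the log2 fold change between the labelled groups was 1.26 (adjusted p = 0.0157), and that of Smarcb1-labelled over wild type was 0.32 (adjusted p = 0.312). Leaving out Smarcb1-labelled replicate 2 alone, which had the highest Ctgf level of the 9 libraries, gave 0.37 over wild type (adjusted p = 0.2698). The 5 airway epithelium markers summed to between 0.785 and 5.20 CPM in Smarcb1-labelled libraries, between 23.5 and 61.0 CPM in Arid2-labelled libraries and between 1.30 and 1.88 CPM in wild-type libraries. Over the 9 libraries Ctgf had a Pearson r of -0.784 with these markers (exact permutation p = 0.0120, adjusted p = 0.334). For deviations from the group means r was 0.263, so the relation lay between the groups. The part of airway cells in the Ctgf difference was not tested. An antisense gene, Gm15270, overlaps Ctgf, and the sources used here do not say whether counting used strand. It had at most 143 counts in any library.

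Cyr61 (Ccn1), the closest relative of Ctgf among the matricellular targets, did not pass the threshold in any comparison. It had 6.94, 9.20 and 7.28 CPM in Smarcb1-labelled libraries, 6.59, 5.49 and 6.36 CPM in Arid2-labelled libraries, and 7.67, 1.91 and 7.21 CPM in wild-type libraries. All Smarcb1-labelled values lay above all Arid2-labelled values. Wild-type replicate 2 lay below all of them, and the other 2 wild-type libraries lay within the range of the Smarcb1-labelled group. The log2 fold change of Smarcb1-labelled over Arid2-labelled was 0.34 (95% interval -0.60 to 1.29, adjusted p = 0.5801). Over wild type it was 0.48 in Smarcb1-labelled thyroids (adjusted p = 0.476) and 0.14 in Arid2-labelled thyroids (adjusted p = 0.907). The sign of the Arid2-labelled value depended on wild-type replicate 2, without which it was -0.27. That library held the lowest level of 4 of the 10 members, namely Cyr61, Ankrd1, Amotl2 and Lats2.

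Ankrd1 encodes a nuclear ankyrin repeat protein that is a YAP target in many cell types and is also abundant in striated muscle. Its level was low and varied widely within groups, with 3.31, 3.23 and 0.243 CPM in Smarcb1-labelled libraries, 7.12, 0.845 and 9.14 CPM in Arid2-labelled libraries, and 3.73, 0 and 0.237 CPM in wild-type libraries. In read counts these were 130, 143 and 9 in Smarcb1-labelled, 648, 54 and 569 in Arid2-labelled, and 123, 0 and 8 in wild-type libraries. The 3 groups overlapped in every comparison. The 95% interval of its log2 fold change ran from -4.49 to 1.83 for Smarcb1-labelled over Arid2-labelled, from -2.43 to 3.997 for Smarcb1-labelled over wild type and from -1.16 to 5.38 for Arid2-labelled over wild type, so these data set almost no limit on its difference between groups. Its level moved with skeletal muscle markers over the 9 libraries (Pearson r = 0.829, exact permutation p = 0.0025, adjusted p = 0.252 over 130 pairs of members and marker lists; Spearman rho = 0.867). Without the 2 libraries farthest from the median of the markers r was 0.762. The muscle markers summed to 1451 CPM in Arid2-labelled replicate 3, which had the most Ankrd1, and to 15.4 CPM in wild-type replicate 2, which had 0 counts of it. The relation did not pass the adjustment, and the part of muscle in the Ankrd1 level was not tested further. Of the 130 pairs, 12 had an exact permutation p under 0.05 for r, and 0 passed the adjustment. Those not described elsewhere included Yap1 with follicular (r = -0.693), erythroid (r = -0.721) and macrophage markers (r = -0.810). The others were Wwtr1 with macrophage markers (r = -0.722) and Amotl2 with erythroid markers (r = 0.752). Without the 2 libraries farthest from the marker median these were -0.533, -0.813, 0.620, 0.294 and 0.382 in the same order. The relations with macrophage markers thus changed sign on that check. For deviations from the group means the values were -0.152, -0.336, -0.660, -0.669 and 0.837 in the same order.

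**Figure D3:**
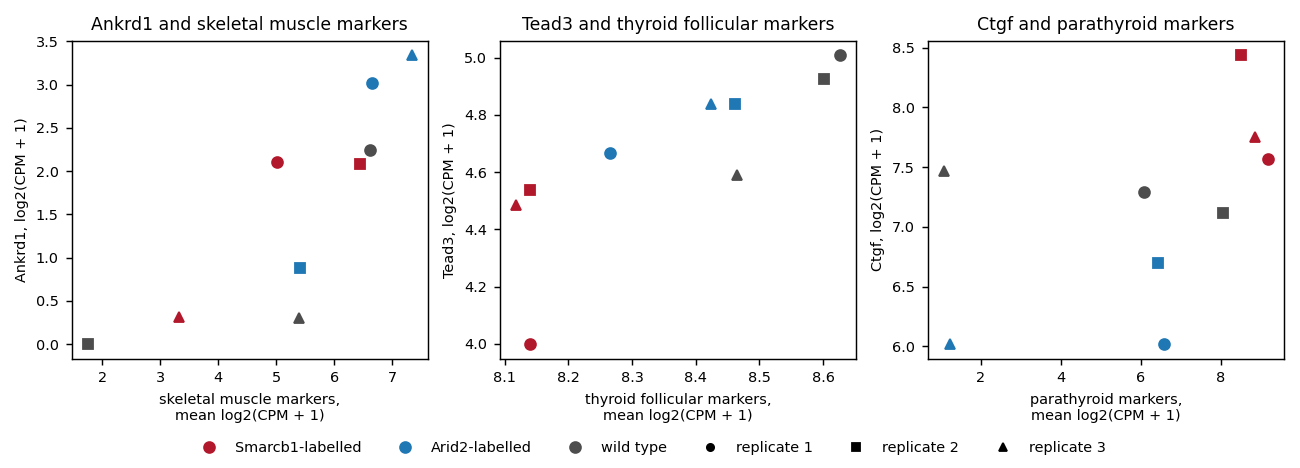
Level of Ankrd1, Tead3 and Ctgf (vertical axes, log2 of CPM + 1) against the mean level of skeletal muscle, thyroid follicular and parathyroid markers (horizontal axes, mean log2 of CPM + 1), 1 point per library, with colour for group and shape for replicate. Ankrd1 is highest where muscle markers are highest, Tead3 is highest where follicular markers are highest, and the 2 libraries with almost no parathyroid markers differ in Ctgf. Over all 9 libraries Ctgf had r = 0.467 with the parathyroid markers.

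Neither feedback gene passed the threshold in any comparison. Amotl2, which encodes an angiomotin that binds and retains YAP, had 27.7, 31.3 and 24.2 CPM in Smarcb1-labelled libraries, 28.5, 27.7 and 30.1 CPM in Arid2-labelled libraries, and 44.7, 23.8 and 34.3 CPM in wild-type libraries. The wild-type group spanned both labelled groups. Its log2 fold change over wild type was -0.30 in Smarcb1-labelled thyroids (95% interval -0.76 to 0.15, adjusted p = 0.349) and -0.25 in Arid2-labelled thyroids (interval -0.71 to 0.21, adjusted p = 0.611). Lats2, the kinase that phosphorylates YAP and TAZ, had 36.3, 38.2 and 41.1 CPM in Smarcb1-labelled libraries, 36.5, 39.7 and 35.0 CPM in Arid2-labelled libraries, and 40.8, 29.4 and 40.8 CPM in wild-type libraries, and the groups overlapped. Its log2 fold change was 0.06 for Smarcb1-labelled over Arid2-labelled, 0.06 for Smarcb1-labelled over wild type and 0.003 for Arid2-labelled over wild type. The intervals around these values reached from -0.30 to 0.37 over the 3 comparisons, and the sign for Arid2-labelled over wild type was negative with DESeq2 size factors, upper-quartile scaling or library totals.

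Yap1 was slightly higher in Smarcb1-labelled libraries without passing the threshold. It had 107, 109 and 136 CPM in Smarcb1-labelled libraries, 93.6, 96.8 and 89.0 CPM in Arid2-labelled libraries, and 92.8, 97.7 and 97.7 CPM in wild-type libraries. Every Smarcb1-labelled value lay above every other value. The log2 fold change was 0.34 over Arid2-labelled (SE 0.11, adjusted p = 0.0659) and 0.29 over wild type (SE 0.11, adjusted p = 0.125). DESeq2 called the difference from Arid2-labelled thyroids (0.34, adjusted p = 0.0243), and over the 20 alternatives the adjusted p ran from 0.0243 to 0.694, with 3 calls. It was also called without Smarcb1-labelled replicate 2 (0.39, adjusted p = 0.0458). The values without Smarcb1-labelled replicate 3, the library with Xist, were 0.22 over Arid2-labelled (adjusted p = 0.176) and 0.17 over wild type (adjusted p = 0.319). With the trend on GC content removed the 2 differences were 0.08 and 0.05. Between Arid2-labelled and wild-type thyroids Yap1 differed by -0.04 on the log2 scale, with an interval of -0.29 to 0.21.

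Wwtr1 had 77.6, 64.8 and 84.2 CPM in Smarcb1-labelled libraries, 67.2, 72.1 and 63.2 CPM in Arid2-labelled libraries, and 64.5, 65.9 and 78.8 CPM in wild-type libraries, and the groups overlapped. Its log2 fold change was 0.16 for Smarcb1-labelled over Arid2-labelled (adjusted p = 0.382), 0.11 for Smarcb1-labelled over wild type (adjusted p = 0.581) and -0.05 for Arid2-labelled over wild type (adjusted p = 0.895). With the GC trend removed the first was -0.15 and the second -0.16. Per kilobase, Yap1 exceeded Wwtr1 in every library. The ratio of Yap1 to Wwtr1 was 1.23, 1.50 and 1.44 in Smarcb1-labelled libraries, 1.24, 1.20 and 1.25 in Arid2-labelled libraries, and 1.28, 1.32 and 1.10 in wild-type libraries, and the groups overlapped. Smarcb1-labelled replicate 3 had the highest level of 4 members, which were Yap1, Wwtr1, Tead1 and Lats2.

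The TEAD paralogs bind the same element and differ in where they are expressed. Tead1 had 77.6, 67.4 and 96.8 CPM in Smarcb1-labelled libraries, 86.9, 75.9 and 76.3 CPM in Arid2-labelled libraries, and 75.5, 76.5 and 93.4 CPM in wild-type libraries. The log2 fold change of Tead1 was 0.02 for Smarcb1-labelled over Arid2-labelled, -0.02 for Smarcb1-labelled over wild type and -0.04 for Arid2-labelled over wild type, with intervals from -0.37 to 0.35. Tead3 had 14.98, 22.2 and 21.4 CPM in Smarcb1-labelled libraries, 24.4, 27.6 and 27.6 CPM in Arid2-labelled libraries, and 31.2, 29.4 and 23.1 CPM in wild-type libraries. All Smarcb1-labelled values of Tead3 lay below all others. Its log2 fold change was -0.51 over wild type (SE 0.17, 95% interval -0.90 to -0.13, adjusted p = 0.0931) and -0.44 over Arid2-labelled (SE 0.17, adjusted p = 0.102). DESeq2 called the first (-0.53, adjusted p = 0.03995). Over the 20 alternatives its adjusted p ran from 0.03995 to 0.654, and it was called in 1. With the GC trend removed, Tead3 in Smarcb1-labelled thyroids differed by -0.11 from wild type and by -3.8e-05 from Arid2-labelled (adjusted p = 0.654 and 0.9999). Its level moved with that of thyroid follicular markers (Pearson r = 0.809, exact permutation p = 0.0039, adjusted p = 0.252 over the 130 pairs; Spearman rho = 0.867), and r was 0.835 without the 2 libraries farthest from the marker median. The mean log2 level of those markers was 8.12 to 8.14 in Smarcb1-labelled, 8.27 to 8.46 in Arid2-labelled and 8.46 to 8.63 in wild-type libraries. Among the 7 markers Foxe1 differed most on that scale, with means of 52.4, 146 and 240 CPM in the same order. Tshr (88.6 against 74.1 CPM) and Slc26a4 (0.186 against 0.0587 CPM) had higher means in Smarcb1-labelled than in wild-type libraries. The Tshr ranges overlapped (52.7 to 121 against 69.0 to 77.7 CPM), and Slc26a4 lay near the floor. The mean level is therefore not a plain measure of follicular cell content, and its part in the Tead3 difference was not tested.

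Tead4, the lowest member per kilobase, had 2.21, 3.17 and 3.90 CPM in Smarcb1-labelled libraries, 3.81, 5.27 and 4.69 CPM in Arid2-labelled libraries, and 2.24, 2.79 and 2.31 CPM in wild-type libraries. All Arid2-labelled values lay above all wild-type values, and the Smarcb1-labelled values overlapped both. The log2 fold change of Arid2-labelled over wild type was 0.91 (SE 0.25, 95% interval 0.34 to 1.47, adjusted p = 0.141). DESeq2 called it (0.89, adjusted p = 0.0325), and it kept its sign in all 20 alternatives (0.80 to 1.02, adjusted p 0.0325 to 0.369, 1 call). Smarcb1-labelled thyroids differed from Arid2-labelled by -0.57 (adjusted p = 0.135) and from wild type by 0.34 (adjusted p = 0.4003). Over the 20 alternatives the first ran from -0.77 to -0.13 and the second from 0.13 to 0.74, with 0 calls in either. The Tead4 level had r = 0.803 with airway epithelium markers (exact permutation p = 0.0123, adjusted p = 0.334), r = 0.780 with endothelial markers (exact permutation p = 0.0188, adjusted p = 0.334), r = -0.765 with fibroblast markers (exact permutation p = 0.0228, adjusted p = 0.334) and r = 0.647 with cartilage markers (exact permutation p = 0.0391, adjusted p = 0.423) over the 9 libraries. For deviations from the group means r was 0.138 with airway, 0.544 with endothelial, -0.439 with fibroblast and 0.449 with cartilage markers, so the relation with airway markers lay mostly between the groups. The 6 endothelial markers summed to between 377 and 579 CPM in Smarcb1-labelled, between 548 and 651 CPM in Arid2-labelled and between 311 and 435 CPM in wild-type libraries. The part of any of these cell types in the Tead4 difference was not tested.

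Together with Tead2, the paralog outside the list, the shares of the summed TEAD level per kilobase could be compared. Tead4 made up 4.48%, 5.99% and 5.62% of it in Smarcb1-labelled libraries, 6.03%, 8.16% and 7.49% in Arid2-labelled libraries, and 3.52%, 4.08% and 3.70% in wild-type libraries. These shares did not overlap between any 2 groups, but the nearest Smarcb1-labelled and Arid2-labelled values were 5.99% and 6.03%. The Tead4 level itself overlapped between Smarcb1-labelled libraries and each of the other groups, and a share also depends on the levels of the other paralogs. Tead1 and Tead3 together made up most of the total in every library. Tead1 held 39.4% to 48.5% in Smarcb1-labelled, 36.3% to 42.4% in Arid2-labelled and 34.6% to 46.1% in wild-type libraries. Tead3 held 27.1% to 37.6% in Smarcb1-labelled, 34.5% to 39.4% in Arid2-labelled and 33.0% to 43.7% in wild-type libraries. No test was run on these shares.

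**Figure D4:**
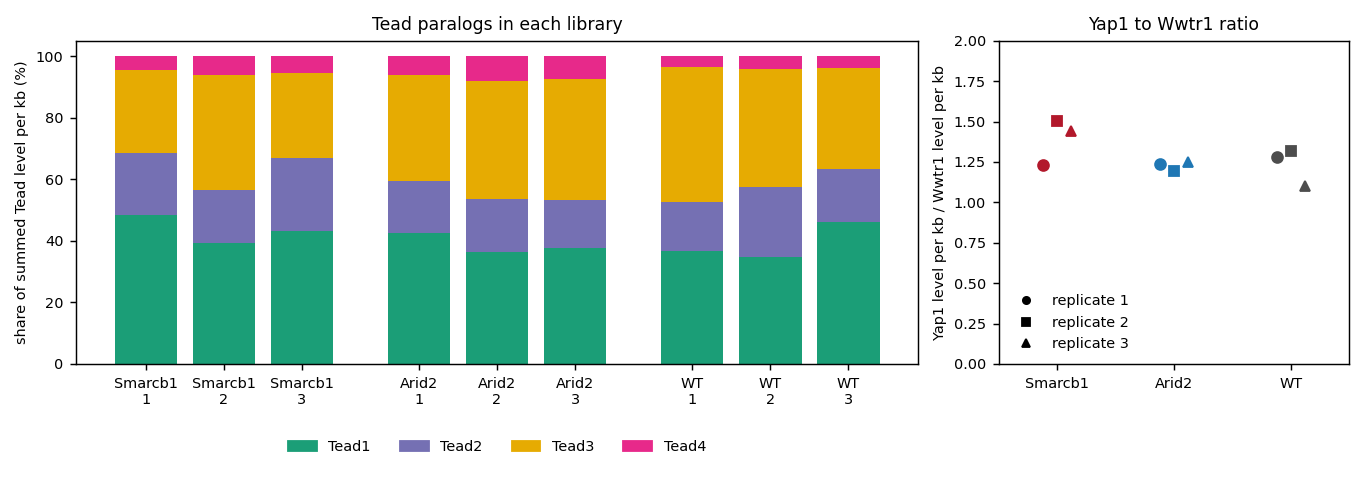
Left, share of each TEAD paralog in the summed TEAD level per kilobase (%, stacked bars, 1 bar per library). Right, ratio of Yap1 to Wwtr1 level per kilobase (points are libraries): Tead4 holds 3.52% to 8.16% of the TEAD level, and the Yap1 to Wwtr1 ratio lies between 1.10 and 1.50.

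The kinases, adaptors and scaffolds upstream of YAP were read from a list of 25 genes, all of which were tested. Between Smarcb1-labelled and Arid2-labelled thyroids 4 were higher and 1 was lower, where all genes gave 6.95% higher and 9.32% lower, and the list's median log2 fold change was 0.06. Mob1b, a LATS cofactor, rose by 0.77 on the log2 scale (98.4 ± 14.3 CPM in Smarcb1-labelled, 57.7 ± 10.05 CPM in Arid2-labelled, SD, n = 3 each; adjusted p = 0.0172). Stk3, which encodes the kinase MST2, rose by 0.51 (34.6 ± 3.88 CPM in Smarcb1-labelled, 24.3 ± 1.79 CPM in Arid2-labelled; adjusted p = 0.02004). Lats1, the paralog of Lats2, rose by 0.59 (109.6 ± 19.5 CPM in Smarcb1-labelled, 72.9 ± 12.8 CPM in Arid2-labelled; adjusted p = 0.0423). Strn3, a subunit of the STRIPAK phosphatase complex that is named here after its value was seen, rose by 0.48 (adjusted p = 0.0438) and was called in 8 of 20 alternatives. Taok2, a kinase that can activate MST kinases, fell by 0.58 (89.5 ± 14.7 CPM in Smarcb1-labelled, 133.7 ± 7.71 CPM in Arid2-labelled; adjusted p = 0.0228). With the GC trend removed, Mob1b differed by 0.35, Lats1 by 0.25, Stk3 by 0.09, Strn3 by 0.04 and Taok2 by -0.22, and none of the 5 was called. Lats1 was called in 8 of 20 alternatives, and it and Strn3 in 1 each of the 9 fits without 1 library (0.44 to 0.73 for Lats1, 0.36 to 0.58 for Strn3). Mob1b, Stk3 and Taok2 were called in 14 or 15 alternatives. Mob1b lost its call when Smarcb1-labelled replicate 1 (0.68), Smarcb1-labelled replicate 3 (0.74) or Arid2-labelled replicate 3 (0.62) was left out, Stk3 when Arid2-labelled replicate 2 (0.55) or 3 (0.44) was, and Taok2 when any 1 of the Arid2-labelled libraries was (-0.56, -0.55 and -0.64).

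Against wild type, 0 of these 25 genes were called in either labelled group by edgeR, with 8 at an unadjusted p under 0.05 in Smarcb1-labelled thyroids, where 28.4% of all genes were, and 3 in Arid2-labelled thyroids, where 14.9% were. Their median log2 fold change was 0.18 in Smarcb1-labelled and 0.02 in Arid2-labelled thyroids. Of the TEAD cofactor list, Tead2, Vgll3 and Vgll4 were tested and none was called in any comparison, with 0, 1 and 1 at an unadjusted p under 0.05 in Smarcb1-labelled against wild type, Arid2-labelled against wild type and Smarcb1-labelled against Arid2-labelled thyroids. The shares of all genes under that p were 28.4%, 14.9% and 35.8% in the same order. Vgll1 had at most 1 count and Vgll2 at most 19 counts in any library, and both failed the filter.

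**Figure D5:**
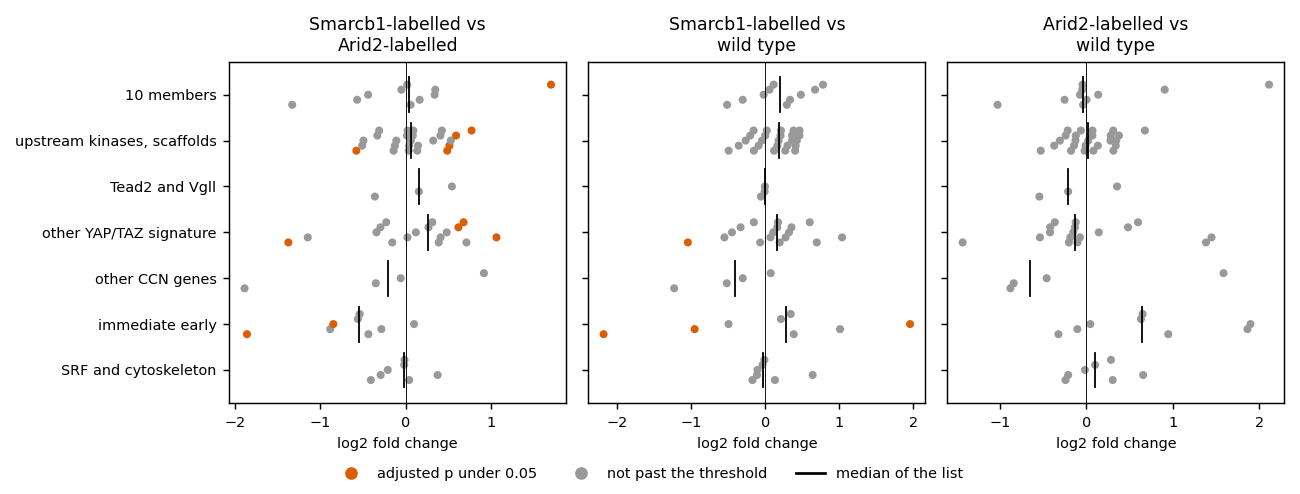
Log2 fold change (horizontal axis) of every tested gene in the 10-gene set and in 6 further lists (rows), in the 3 comparisons, with the median of each list as a bar. Called genes are orange, and the upstream list has 5 of them between Smarcb1-labelled and Arid2-labelled thyroids.

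Ctgf, Cyr61, Ankrd1, Amotl2 and Lats2 belong to a published signature of YAP and TAZ target genes, and the other 17 genes of that signature were all tested. Between Smarcb1-labelled and Arid2-labelled thyroids 3 were higher and 1 was lower. Gadd45a, a stress-response gene, rose by 1.06 on the log2 scale (16.3 ± 4.09 CPM in Smarcb1-labelled, 7.81 ± 0.179 CPM in Arid2-labelled, SD, n = 3 each; adjusted p = 0.0162), and it was called in 17 of 20 alternatives but not without Arid2-labelled replicates 2 or 3 (1.07 and 1.05). Myof, which encodes the membrane repair protein myoferlin, rose by 0.62 (adjusted p = 0.0249) and was called in 14 of 20 but not without Arid2-labelled replicates 2 or 3 (0.62 and 0.54) or Smarcb1-labelled replicates 1 or 3 (0.65 and 0.56). Crim1, a transmembrane regulator of BMP ligands, rose by 0.68 (adjusted p = 0.0484) and was called in 5 of 20 and in 0 of the 9 fits without 1 library (0.51 to 0.81). Foxf2, a mesenchymal forkhead factor under 2 CPM in every library, fell by 1.38 (adjusted p = 0.0438) and was called in 5 of the 19 alternatives that tested it, 1 of them a fit without 1 library (-1.59 to -1.04 over the 9), and it was -0.83 with the GC trend removed (adjusted p = 0.144). With the parathyroid covariate Gadd45a was at 0.91, Myof at 0.41, Crim1 at 0.47 and Foxf2 at -1.06, and none of the 4 was called. The median of the 17 was 0.26, with 11 positive and 6 negative. Together with Ctgf, 5 of the 22 signature genes were called between the 2 labelled groups, 4 of them higher in Smarcb1-labelled thyroids, where 16.3% of all genes were called, 6.95% higher and 9.32% lower.

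Against wild type the signature gave fewer calls. Fjx1, the homologue of the Drosophila Golgi kinase four-jointed, was lower in Smarcb1-labelled thyroids (0.48, 0.50 and 0.54 CPM, against 1.03, 1.19 and 0.92 CPM in wild type; log2 fold change -1.04, adjusted p = 0.0486). That call held in 1 of 19 alternatives and in 0 of the 9 fits without 1 library (-1.13 to -0.94). With the GC trend removed the log2 fold change was -0.37 (adjusted p = 0.471). In Arid2-labelled thyroids all Fjx1 values also lay below all wild-type values (log2 fold change -1.43, edgeR adjusted p = 0.0554). That value ran from -1.62 to -1.27 over 19 alternatives and was called in 2. The median of the 17 genes was 0.16 in Smarcb1-labelled and -0.13 in Arid2-labelled thyroids, with 0 called in the second by edgeR and 7 of 17 at an unadjusted p under 0.05 in each, where 28.4% of all genes were in Smarcb1-labelled and 14.9% in Arid2-labelled thyroids. Of the 4 other CCN family genes (Nov, Wisp1, Wisp2 and Wisp3), none was called by edgeR in any comparison, and 2, 2 and 1 had an unadjusted p under 0.05 for Smarcb1-labelled over Arid2-labelled, Smarcb1-labelled over wild type and Arid2-labelled over wild type. The shares of all genes under that p were 35.8%, 28.4% and 14.9% in the same order.

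Ctgf and Cyr61 are also induced by serum and mechanical stimuli, together with immediate early genes and targets of SRF. Of 8 immediate early genes, Junb and Ier2 fell and Fosb rose in Smarcb1-labelled thyroids against wild type, where 7.9% of all genes were called. Junb had 3.15, 7.73 and 2.98 CPM in Smarcb1-labelled libraries, against 16.4, 17.4 and 16.7 CPM in Arid2-labelled and 21.9, 22.4 and 18.8 CPM in wild-type libraries. It fell by 2.18 on the log2 scale against wild type (adjusted p = 0.0095, called in 20 of 20 alternatives) and by 1.86 against Arid2-labelled (adjusted p = 0.0119, not called without Arid2-labelled replicate 3, where it was -1.87 with an adjusted p of 0.0522, nor with the parathyroid covariate, where it was -1.91 with an adjusted p of 0.0734). With the GC trend removed both differences of Junb were smaller, at -1.35 against wild type and -1.11 against Arid2-labelled, and both were called. Ier2 fell by 0.95 against wild type (adjusted p = 0.0185) and by 0.85 against Arid2-labelled (adjusted p = 0.0186). Ier2 was not called against wild type without Smarcb1-labelled replicate 3 (-0.88) or wild-type replicates 1 or 3 (-0.95 and -0.90), nor against Arid2-labelled without Smarcb1-labelled replicates 1 or 3 (-0.73 and -0.78) or Arid2-labelled replicate 3 (-0.82). With the GC trend removed it was -0.27 against wild type (adjusted p = 0.301) and -0.19 against Arid2-labelled (adjusted p = 0.401). Neither difference was called with the parathyroid covariate (-0.84 and -0.73) or with only the 6 libraries compared (-0.97 and -0.85), and each was called in 14 of 20 alternatives. Fosb, under 2 CPM in every library, rose by 1.96 against wild type (adjusted p = 0.0478, called in 5 of 19 alternatives and in 1 of the 9 fits without 1 library, 1.33 to 2.28; 1.29 without both thymocyte-marked libraries, adjusted p = 0.097). No immediate early gene was called between Arid2-labelled and wild-type thyroids by edgeR, where 2 had an unadjusted p under 0.05, against 14.9% of all genes. Fosb was higher in Arid2-labelled thyroids as well, by 1.86 on the log2 scale against wild type (edgeR adjusted p = 0.129). All its Arid2-labelled values lay above all wild-type values, and that difference was called in 1 of 19 alternatives. None of 7 SRF and cytoskeletal genes was called by edgeR in any comparison, and 2, 0 and 0 had an unadjusted p under 0.05 in Smarcb1-labelled over Arid2-labelled, Smarcb1-labelled over wild type and Arid2-labelled over wild type. The shares of all genes under that p were 35.8%, 28.4% and 14.9% in the same order. Between the 2 labelled groups, 2 of the 8 immediate early genes were called, Junb and Ier2, where 16.3% of all genes were. Both were lower in Smarcb1-labelled thyroids, where Ctgf was higher, and whether these differences are related was not tested.

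Levels of the 10 members were compared with each other over the 9 libraries on the log2(CPM + 1) scale. Of 45 pairs, 0 passed the adjustment and 3 had an exact two-sided permutation p under 0.05 for Pearson's r. Yap1 and Wwtr1 had r = 0.696 (exact p = 0.0233, adjusted p = 0.538; rho = 0.617), and r = 0.778 without the 2 libraries farthest from the median of Yap1. Wwtr1 and Tead1 had r = 0.731 (exact p = 0.0239, adjusted p = 0.538, rho = 0.767). Their r was 0.211 on the same check and 0.836 for deviations from the group means, so its size depended on the libraries left out. Cyr61 and Lats2 had r = 0.823 (exact p = 0.0366, adjusted p = 0.549, rho = 0.65). Their r was 0.341 on that check and 0.842 for deviations from the group means, so its size depended on the libraries left out as well. Ctgf and Cyr61, with r = 0.277 (exact p = 0.469, adjusted p = 0.705; rho = 0.717), did not pass for r, and by rank their exact p was 0.0369 (adjusted p = 0.386), and Ctgf and Ankrd1 had r = -0.436 (exact p = 0.2405, adjusted p = 0.673; rho = -0.417). Cyr61 and Ankrd1 had r = 0.454 (exact p = 0.222, adjusted p = 0.673; rho = 0.117). No pair among these 3 classical reporters of YAP activity passed the adjustment. By Spearman's rho 4 of the 45 pairs had an exact p under 0.05 and 0 passed the adjustment. The highest rho was that of Ctgf and the coactivator gene Yap1, at 0.817 (exact p = 0.0108, adjusted p = 0.386), with r = 0.651 (exact p = 0.0562, adjusted p = 0.632), 0.528 without the 2 libraries farthest from the median of Ctgf and -0.02 for deviations from the group means.

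The genes whose level was most like that of a member over the 9 libraries were taken from 11814 tested genes outside the lists, by Pearson r on the same scale and as a description only. For Cyr61 they were Gda (r = 0.942), Nhlrc3 (r = 0.929) and Trim12a (r = 0.917), and the last had a rho of 0.05. For Ankrd1 they were Mlf1 (r = 0.941), Smyd1 (r = 0.928) and Rbm24 (r = 0.924), 3 genes that are themselves known from striated muscle. For Yap1 they were Tada2b, Card6 and Pcdhb22, each with r = 0.962.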

How the data were processed

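RNA was sequenced from 9 mouse thyroid libraries, 3 in each of 3 groups taken from the genotype labels (TRIzol extraction and TruSeq RNA libraries, per the labels' protocols). The authors deposited 1 table of raw read counts per gene. Per the submitters' processing notes, the tools were STAR 2.4, HTSeq 0.6.1 and DESeq2 and the build mm9, listed without roles, and the strand setting is not given in the sources used here. The 10 members and all gene lists were chosen with earlier results of these data known. Genes were filtered by filterByExpr (17079 of 33924 kept), scaled by TMM and fitted together over all 9 libraries with edgeR 4.0.16 (quasi-likelihood test, 6 residual degrees of freedom, common dispersion 0.0776), with p-values adjusted by the Benjamini-Hochberg method over all tested genes and called under 0.05. SE values come from each fold change and its F statistic. The alternatives used DESeq2 1.42.0, limma 3.58.1, other scalings and filters, a GC trend (values for 97.3% of tested genes), a parathyroid covariate and left-out libraries. Correlations used log2(CPM + 1) with exact permutation p-values. The fitting step was tested on simulated data with the same dispersion for every gene. Of 100 genes changed 2-fold it called 18 for Arid2-labelled over wild type. It called 23 of 100 for Smarcb1-labelled over wild type and 23 of 100 for Smarcb1-labelled over Arid2-labelled, so most changes of that size were missed at that dispersion. The spread of single genes differs from that setting, so these shares do not give the power for each member. Of 100 genes changed 4-fold it called 97, 97 and 99 in the same order. Lengths per kilobase were those of the longest GENCODE transcript on GRCm38, a build other than the one in the processing notes. All members are named, and of each other pathway list the called genes, up to 4 per comparison by adjusted p, with Strn3 added after its value was seen; marker lists are given by their summed or mean levels; the genes most like a member are the 3 with the highest r among genes whose average log2 CPM was 1 or more. Those most like Ctgf are not reported here.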

Additional observations from a re-analysis of the deposited data

How the results depend on the processing

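Of 600 values of the members under 20 alternatives, 593 kept their side of the threshold, 6 passed it under an alternative and 1 no longer did, which was Ctgf between Smarcb1-labelled and Arid2-labelled thyroids with the parathyroid covariate. Signs changed in 29 of the 600, none of them a called value. Of 891 values of the other named genes, 124 no longer passed the threshold, 10 newly passed it and 0 called values changed sign. The number of members called between the labelled groups was 2 with upper-quartile scaling, 2 with DESeq2, 0 with the parathyroid covariate, and 1 to 2 when leaving out single libraries. Against wild type, DESeq2 called 1 member in Smarcb1-labelled and 2 in Arid2-labelled thyroids. Counts over all genes moved far more. Between the labelled groups they were 4337 with DESeq2, 1348 with only the 6 libraries compared, 1281 with the GC trend removed, 145 with the parathyroid covariate and 395 to 4411 when leaving out single libraries. For Smarcb1-labelled over wild type they were 2777, 486, 461 and 197 in the same order, 2166 without both thymocyte-marked libraries and 344 to 2538 when leaving out single libraries. For Arid2-labelled over wild type they were 888 with DESeq2, 201 with only 6 libraries, 240 with the GC trend removed, 56 without both thymocyte-marked libraries and 5 to 167 when leaving out single libraries. The cause of these shifts was not tested. No paired analysis was possible because the columns carry no replicate numbers that tie libraries of different groups together. The members with the fewest reads were Ankrd1, with 0 to 648 per library, Tead4, with 74 to 347, and Cyr61, with 67 to 600, followed by Tead3, with 589 to 2220.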
